A study of Mus musculus with 6 samples.

Results

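Transforming growth factor beta (TGF-beta) signalling was examined through 10 of its genes in mouse LSK cells: the ligand gene Tgfb1, the receptor genes Tgfbr1 and Tgfbr2, the SMAD genes Smad2, Smad3, Smad4 and Smad5, and the feedback genes Smad7, Ski and Skil. They were chosen by name from a count table of 49671 Ensembl genes, and all 10 were found and passed the filter on low counts. LSK cells lack lineage markers and carry Sca-1 and Kit, and they are the part of bone marrow in which blood stem cells and their nearest multipotent descendants lie. RNA was sequenced in 6 libraries from BALB/c mice. In 3 of them (shCxxc5 replicates 2, 3 and 4) the cells carried a retroviral hairpin against Cxxc5, and in 3 (shCtrl replicates 2, 3 and 4) a retroviral hairpin that targets no mouse gene. All libraries share the retroviral infection, the culture that comes with it and a GFP-positive LSK sort, and each held cells pooled from several animals. Nothing in the labels ties a number to its own infection, culture or set of animals, so each p-value reflects spread among libraries that may be technical.

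TGF-beta is made as a latent precursor and, once freed, binds TGFBR2, which activates TGFBR1. TGFBR1 phosphorylates SMAD2 and SMAD3, which enter the nucleus with SMAD4 and switch target genes on or off, while SMAD5 carries the related bone morphogenetic protein (BMP) signal. The pathway has its own brakes: SMAD7 blocks and removes the receptor, and SKI and SKIL (SnoN) repress SMAD complexes on DNA. In blood stem cells TGF-beta is known as a signal for quiescence. Cxxc5 encodes a nuclear protein whose CXXC zinc finger recognises CpG sites without methylation.

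The targeted gene and the libraries came first. Cxxc5 stood at 6.74, 17.4 and 17.9 CPM (read counts scaled to the size of each library) in shCxxc5 replicates 2, 3 and 4, against 82.2, 59.9 and 57.9 CPM in shCtrl replicates 2, 3 and 4. Every shCxxc5 library lay below every shCtrl library (exact permutation test of log2 CPM, two-sided, p = 0.1, which no design of 3 against 3 can go below). Library totals ran from 15002414 to 27754019 counts. Replicates 3 and 4 of a group were close to counting error: 15.0% of genes in shCxxc5 and 17.5% in shCtrl differed between them at p under 0.05, where sampling alone gives 5%. Between replicate 2 and either of them 65.1% to 73.9% of genes differed. Of the sort markers, Kit ran from 82.4 to 110 CPM in all 6 libraries, while Ly6a, which encodes Sca-1, stood at 33.1 CPM in shCxxc5 replicate 2 and 46.4 CPM in shCtrl replicate 2, against 703 to 804 CPM in the other 4. The 10 megakaryocyte and platelet markers summed to 1617, 304 and 297 CPM in shCxxc5 replicates 2, 3 and 4, and to 6826, 481 and 479 CPM in shCtrl. The 10 granulocyte and monocyte markers summed to 5473 CPM in shCxxc5 replicate 2 and to 844 CPM in shCtrl replicate 2, and lay between 1140 and 1301 CPM elsewhere. Most of the 5473 CPM was Mpo, Ctsg, Prtn3 and Elane (2914, 1034, 896 and 385 CPM). Itgam (14.9 against 27.1 CPM) and Csf1r (25.9 against 47.3 CPM) were lower in shCxxc5 replicate 2 than in shCtrl replicate 2. The median log2 ratio of the 10 markers there was 1.58. The values of the 10 genes are therefore given by replicate number below, and the test is given over all 6 libraries and over replicates 3 and 4 alone.

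Skil, Smad7, Ski, Tgfbr2 and Smad4 were lower in shCxxc5 cells within every replicate number, as 22.4% of all tested genes were. Tgfbr1 and Smad2 were higher within every number, as 19.0% of all tested genes were. With all 6 libraries the quasi-likelihood test of edgeR called 0 of the 10 genes at a Benjamini-Hochberg adjusted p under 0.05. It called 0% of the 14637 genes tested, and Cxxc5 itself did not pass (log2 fold change -2.25, SE 0.40, adjusted p = 0.940). Of the 10 genes, Skil alone had an unadjusted p under 0.05, as did 575 of the 14637. With the replicate number as a block edgeR again called 0 genes (adjusted p = 0.327 for Cxxc5). An unadjusted p under 0.05 was seen there for 4 of the 10 (Tgfbr1, Smad7, Ski and Skil) and for 1796 of the 14637 genes. DESeq2 called 0 of the 10 without the block, where it called 0.130% of all genes (0.0342% higher and 0.0956% lower), and with the block it called Skil lower (adjusted p = 0.0233), where it called 1% of all genes (0.143% higher and 0.861% lower). In replicates 3 and 4 alone (2 libraries per group), edgeR called 4 of the 10, against 20.0% of the 14193 genes tested there. Tgfbr1 was the 1 called higher (11% of all genes), and Skil, Tgfbr2 and Smad7 were the 3 called lower (9% of all genes).

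**Figure D1:**
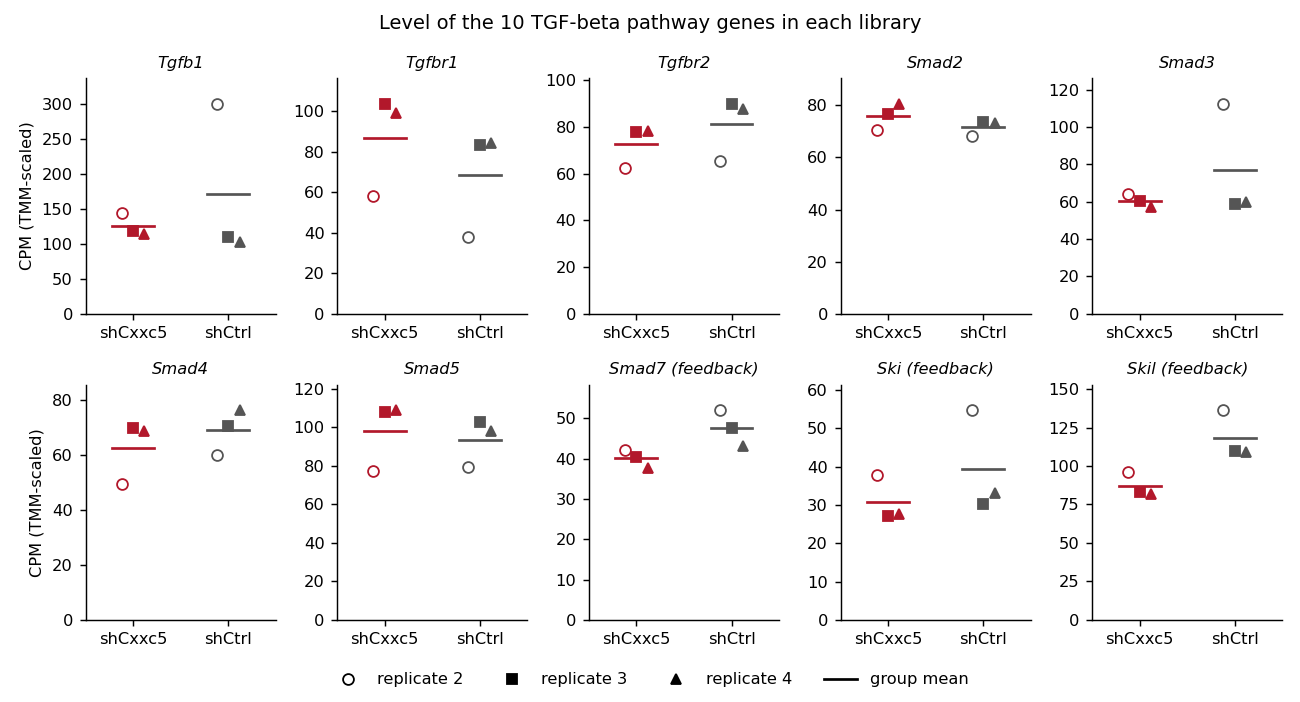
TMM-scaled CPM (y axis, from 0) of the 10 genes in each library, shCxxc5 left of shCtrl; symbols mark the replicate number and lines the group mean. Smad7 and Skil are the genes whose 3 shCxxc5 libraries all lie below the 3 shCtrl libraries. Open circles (replicate 2) lie below replicates 3 and 4 in both groups for Tgfbr1, Tgfbr2, Smad4 and Smad5. They lie above in both groups for Ski, and stand apart mainly in shCtrl for Tgfb1 and Smad3.

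The feedback genes are taken first. Skil (ENSMUSG00000027660; GRCm38 chromosome 3, 31095058 to 31122577, plus strand) encodes SnoN, a SMAD corepressor that TGF-beta both degrades and re-induces. It stood at 96.2, 83.3 and 81.6 CPM in shCxxc5 replicates 2, 3 and 4, against 137, 109.9 and 109 CPM in shCtrl replicates 2, 3 and 4. The highest shCxxc5 library was below the lowest shCtrl library, and the shCxxc5 level was 70.4%, 75.8% and 74.8% of the shCtrl level of the same number. Its mean was 87.0 ± 7.97 CPM in shCxxc5 and 119 ± 15.6 CPM in shCtrl (SD, n = 3 each). The log2 fold change over 6 libraries was -0.45 (SE 0.13), with an adjusted p of 0.940 in edgeR, which did not pass. In replicates 3 and 4 Skil fell by 0.40 on the log2 scale (SE 0.05, edgeR adjusted p = 2.09e-07). This call also held without each of those 4 libraries in turn. The megakaryocyte marker sum was lower in shCxxc5 within each number too, as given above. In numbers 3 and 4 most of that sum was the marker Itgb3, at 211 and 206 CPM in shCxxc5 against 341 and 330 CPM in shCtrl. The median log2 ratio of the 10 markers was -0.67 and -0.70 there. At low counts, Gp9 in number 3 and Tubb1 in number 4 were higher in shCxxc5. The part of the marker sum in the Skil value was not tested. In bulk RNA fewer cells of a type and less RNA per cell cannot be told apart.

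Smad7 (ENSMUSG00000025880; chromosome 18, 75367529 to 75395935, plus strand) encodes the inhibitory SMAD that carries ubiquitin ligases to the receptor. Its level was 42.1, 40.4 and 37.8 CPM in shCxxc5 replicates 2, 3 and 4, against 52.1, 47.6 and 43.1 CPM in shCtrl. The groups did not overlap, with 42.1 CPM in the highest shCxxc5 library and 43.1 CPM in the lowest shCtrl library. Smad7 and Skil were the 2 of 10 genes without overlap, both lower, as 6.35% of all tested genes were (6.72% were higher without overlap). For each of the pair p was 0.1 (exact permutation test, two-sided), the lowest value open to 3 against 3. For replicates 3 and 4 the Smad7 log2 fold change was -0.21 (SE 0.07, edgeR adjusted p = 0.0295). That call was lost in DESeq2 (adjusted p = 0.183) and without shCxxc5 replicate 3 (-0.26, adjusted p = 0.0689), shCxxc5 replicate 4 (-0.17, 0.229) or shCtrl replicate 3 (-0.13, 0.328).

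Ski (ENSMUSG00000029050; chromosome 4, 155154075 to 155222592, minus strand) encodes the paralogue of SnoN, which recruits corepressors to SMADs in the same way. It stood at 37.8, 27.2 and 27.5 CPM in shCxxc5 replicates 2, 3 and 4, against 54.8, 30.2 and 33.1 CPM in shCtrl. Replicate 2 was the highest library of its group in both, so the groups overlapped, while each number had less Ski in shCxxc5 (log2 ratios of -0.53, -0.15 and -0.26). The log2 fold change in replicates 3 and 4 was -0.20 (SE 0.08, edgeR adjusted p = 0.0759), which did not pass; scaled by library totals alone it passed (-0.23, adjusted p = 0.0415).

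The receptor genes stood on opposite sides. Tgfbr1 (ENSMUSG00000007613; chromosome 4, 47353222 to 47414931, plus strand) encodes the type I receptor kinase that phosphorylates SMAD2 and SMAD3. It stood at 57.9, 104 and 99.3 CPM in shCxxc5 replicates 2, 3 and 4, against 38.0, 83.3 and 84.4 CPM in shCtrl. Both replicate 2 libraries were low, and within each number shCxxc5 was higher, at 152%, 125% and 118% of shCtrl. Over 6 libraries the log2 fold change was 0.34 (SE 0.37, edgeR adjusted p = 0.940), and the spread between numbers was larger than the difference. Within replicates 3 and 4 Tgfbr1 rose by 0.29 (SE 0.05, edgeR adjusted p = 6.40e-05), and the call held without each of the 4 libraries.

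Tgfbr2 (ENSMUSG00000032440; chromosome 9, 116084293 to 116175360, minus strand) encodes the type II receptor that binds the ligand. It stood at 62.4, 77.8 and 78.4 CPM in shCxxc5 replicates 2, 3 and 4, against 65.5, 90.1 and 87.9 CPM in shCtrl. It was lower in shCxxc5 within each number (log2 ratios of -0.07, -0.21 and -0.16), and the ranges overlapped because both replicate 2 libraries were low. Within replicates 3 and 4 it fell by 0.18 (SE 0.05, edgeR adjusted p = 0.00799). That call was lost in DESeq2 (adjusted p = 0.0806) and without shCxxc5 replicate 3 (adjusted p = 0.0892) or shCtrl replicate 3 (0.0844).

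The promoters of the 2 receptor genes are shown as a description, and were chosen because their transcripts moved apart in replicates 3 and 4. Promoter entries exist for 6 of the 10 genes, and no link between a window and a transcript level was tested. Each window holds 250 bases before and 50 after a RefSeq start (GRCm38.p6), 5′ to 3′ on the gene's strand, with CpG dinucleotides in capitals. For Tgfbr1 the window of lowest position was taken, and for Tgfbr2 the one listed first. Tgfbr1 is chr4:47352972-47353271 on the plus strand and Tgfbr2 is chr9:116175314-116175613 on the minus strand.
Tgfbr1: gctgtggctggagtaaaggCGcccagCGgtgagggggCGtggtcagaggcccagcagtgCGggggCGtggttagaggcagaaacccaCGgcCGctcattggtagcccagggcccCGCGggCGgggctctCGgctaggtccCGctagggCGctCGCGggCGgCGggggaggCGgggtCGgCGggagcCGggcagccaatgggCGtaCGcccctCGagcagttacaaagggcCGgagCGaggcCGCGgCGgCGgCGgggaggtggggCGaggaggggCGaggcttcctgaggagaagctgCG
Tgfbr2: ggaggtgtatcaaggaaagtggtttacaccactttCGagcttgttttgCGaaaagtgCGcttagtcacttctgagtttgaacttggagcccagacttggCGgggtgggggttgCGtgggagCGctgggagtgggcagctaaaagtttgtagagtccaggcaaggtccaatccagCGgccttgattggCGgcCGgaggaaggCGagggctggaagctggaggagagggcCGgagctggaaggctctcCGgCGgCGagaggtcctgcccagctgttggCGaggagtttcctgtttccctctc
The Tgfbr1 window holds 34 CpG, a number that 7.73% of 32851 mouse windows of the same length reach, and the Tgfbr2 window holds 15, which 34.6% reach. The median window holds 7. The 4-letter SMAD box (AGAC on either strand, so also GTCT) is absent from the Tgfbr1 window and occurs 1 time in the Tgfbr2 window, while 88.0% of all windows hold at least 1. The 8-letter palindrome GTCTAGAC is in neither, and in 0.213% of all windows. These counts are descriptions of the letters in the windows, with no binding measured.

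The ligand gene and the 4 SMAD genes that carry the signal did not pass in either fit. Tgfb1 (ENSMUSG00000002603; chromosome 7, 25687002 to 25705077, plus strand), the ligand gene, stood at 143, 118 and 114 CPM in shCxxc5 replicates 2, 3 and 4, against 300.3, 110.1 and 102 CPM in shCtrl. The shCtrl replicate 2 library stood above all others, and in numbers 3 and 4 shCxxc5 was slightly higher (log2 ratios of -1.07, 0.10 and 0.15 for numbers 2, 3 and 4). Its log2 fold change in replicates 3 and 4 alone was 0.13 (SE 0.05, edgeR adjusted p = 0.0560), which did not pass; with the replicate block it passed (adjusted p = 0.0270), as it did without shCtrl replicate 3 (0.18, adjusted p = 0.0461).

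Smad3 (ENSMUSG00000032402; chromosome 9, 63646767 to 63757994, minus strand), a DNA-binding mediator of the TGF-beta signal, followed the ligand gene in number 2. It stood at 64.0, 60.5 and 57.2 CPM in shCxxc5 replicates 2, 3 and 4, against 113, 59.0 and 59.6 CPM in shCtrl. Without shCtrl replicate 2 the 6-library log2 fold change turned from -0.35 to 0.03 for Smad3 and from -0.45 to 0.24 for Tgfb1. That library also held the largest megakaryocyte marker sum (6826 CPM, against 1617 CPM in shCxxc5 replicate 2), all 10 of those markers had counts, and their median log2 ratio in number 2 was -2.38. In numbers 3 and 4 the megakaryocyte marker sum, mostly Itgb3, was 304 and 297 CPM in shCxxc5, against 481 and 479 CPM in shCtrl. The granulocyte and monocyte sum also differed in number 2 (5473 CPM in shCxxc5, 844 CPM in shCtrl). In the same order, mast cell, basophil and eosinophil markers summed to 1958 and 434 CPM, and erythroid markers to 1070.5 and 551 CPM. Stem and multipotent progenitor markers summed to 1150 and 1737 CPM. Lymphoid markers summed to 68.5 and 27.4 CPM, and marrow stroma and endothelium markers to 228 and 268 CPM. The part of these markers in the Tgfb1 and Smad3 values was not tested.

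**Figure D2:**
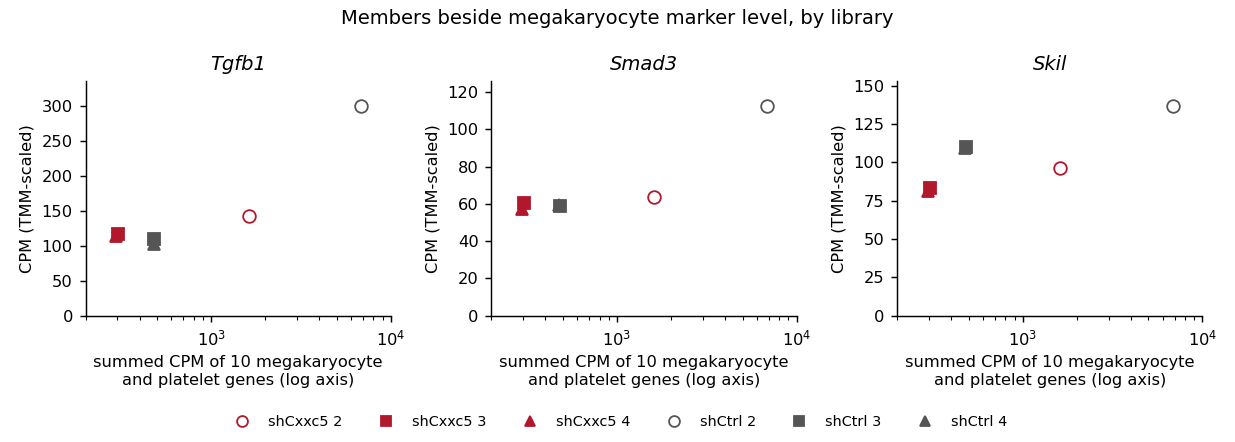
CPM of Tgfb1, Smad3 and Skil (y axes, from 0) against the summed CPM of 10 megakaryocyte and platelet markers (x axis, log scale) in each library; colours mark the groups and symbols the replicate numbers. Tgfb1 and Smad3 are highest in shCtrl replicate 2, where the marker sum is 6826 CPM. In numbers 3 and 4 Skil and the marker sum both separate the groups (sums of 304 and 297 CPM in shCxxc5, 481 and 479 CPM in shCtrl). Most of the sum there is Itgb3.

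Smad2 (ENSMUSG00000024563; chromosome 18, 76241580 to 76310963, plus strand), encodes the partner of SMAD3. Its values were 70.7, 76.7 and 80.7 CPM in shCxxc5 replicates 2, 3 and 4, against 68.1, 73.5 and 73.2 CPM in shCtrl. Within each number shCxxc5 was slightly higher, and the groups overlapped; the log2 fold change in replicates 3 and 4 was 0.10 (SE 0.05, edgeR adjusted p = 0.172). Smad4 (ENSMUSG00000024515; chromosome 18, 73639009 to 73703780, minus strand), the common partner of all receptor-activated SMADs, stood at 49.5, 69.7 and 68.8 CPM in shCxxc5 and at 60.0, 70.7 and 76.5 CPM in shCtrl. Its groups overlapped, with replicate 2 lowest in each, and replicates 3 and 4 gave -0.08 (SE 0.05, edgeR adjusted p = 0.361). Smad5 (ENSMUSG00000021540; chromosome 13, 56703010 to 56742377, plus strand), the mediator of BMP signals, stood at 77.1, 108 and 109 CPM in shCxxc5 and at 79.6, 103 and 98.3 CPM in shCtrl. Its log2 fold change in replicates 3 and 4 was 0.11 (SE 0.05, edgeR adjusted p = 0.0790), and 100 of its 7420 exon bases are shared with a gene on the same strand. None of the other 9 genes shares exon bases with another annotated gene.

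Set side by side by replicate number, the 3 feedback genes lay below the core components at the median. The median log2 ratio of shCxxc5 over shCtrl was -0.51, -0.24 and -0.26 for the 3 feedback genes in numbers 2, 3 and 4, and -0.07, 0.06 and 0.14 for the 7 core components, while it was -0.04, -0.01 and 0.00 over all tested genes. Of the 10 genes, 7 kept 1 direction in all 3 numbers, as 41.5% of all tested genes did. All 3 feedback genes were below 0 in each number, as 22.4% of all tested genes were. Of the core components, 2 were higher in all 3 numbers (Tgfbr1 and Smad2; 19.0% of all tested genes) and 2 lower (Tgfbr2 and Smad4). The ranges were -0.53 to -0.31, -0.40 to -0.15 and -0.42 to -0.19 for the feedback genes. For the core components they were -1.07 to 0.61, -0.21 to 0.32 and -0.16 to 0.24, so Tgfbr2 in number 3 and, in number 2, Tgfb1 and Smad3 reached as low as feedback genes. With 3 and 7 genes of 1 pathway these medians carry no test.

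**Figure D3:**
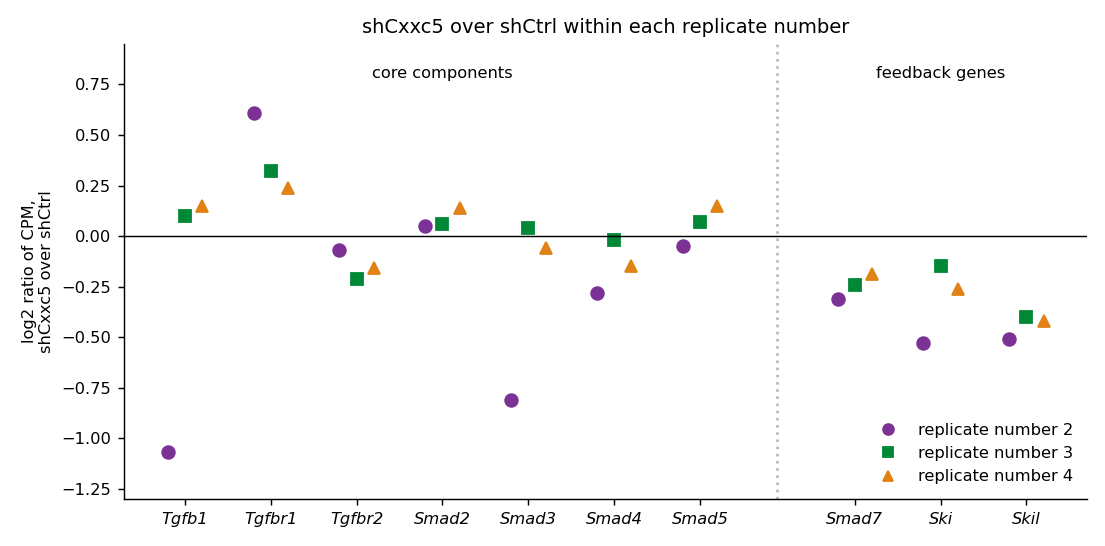
Log2 ratio of CPM, shCxxc5 over shCtrl (y axis), within replicate numbers 2, 3 and 4 for the 7 core components (left) and the 3 feedback genes (right); each point is 1 pair of libraries. All 9 feedback points are below 0, and the core components lie on both sides, with Tgfb1 (-1.07) and Smad3 (-0.81) far below in number 2.

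Per length of exon, the ligand gene had the highest group mean of the 10 and Ski the lowest, in both groups. Single libraries departed from this: in shCtrl replicate 4 Smad4 (20.6 CPM per kb) was above Tgfb1 (20.2), and in shCtrl replicate 2 Ski (9.86 CPM per kb) was above Tgfbr1 (5.82), Smad2 (7.75) and Tgfbr2 (7.99). Tgfb1 averaged 24.8 ± 3.19 CPM per kb in shCxxc5 and 33.9 ± 22.3 in shCtrl (SD, n = 3 each, as for the other group means here). Smad4 came second with 16.9 ± 3.08 CPM per kb in shCxxc5 and 18.6 ± 2.25 in shCtrl. In shCxxc5, Tgfbr1 (13.3 ± 3.87), Smad5 (13.2 ± 2.46) and Smad3 (10.9 ± 0.607 CPM per kb) followed. Skil (8.98 ± 0.822), Tgfbr2 (8.90 ± 1.11), Smad7 (8.87 ± 0.485) and Smad2 (8.66 ± 0.573 CPM per kb) were next and did not differ beyond their spread. Ski was last at 5.55 ± 1.09 CPM per kb in shCxxc5 and 7.08 ± 2.42 in shCtrl, where it overlapped Smad2. In shCtrl the genes between Smad4 and Ski ran from 13.9 ± 5.55 for Smad3 through 12.6 ± 1.66 for Smad5 and 12.2 ± 1.61 for Skil down to 8.15 ± 0.349 CPM per kb for Smad2, and neighbours in that order overlapped.

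Levels in replicate 2 differed from those in replicates 3 and 4 of the same group for several members, for some alike in both groups and for others mainly in shCtrl. Tgfbr1 was lower in replicate 2 than in the mean of replicates 3 and 4 by a log2 difference of -0.81 in shCxxc5 and -1.14 in shCtrl. Smad5 (-0.50 in shCxxc5 and -0.34 in shCtrl), Smad4 (-0.48 and -0.29) and Tgfbr2 (-0.32 and -0.44) were also lower there in both groups. Ski was higher there, by 0.47 in shCxxc5 and 0.79 in shCtrl. Tgfb1 was higher by 0.31 in shCxxc5 and 1.5 in shCtrl, and Smad3 by 0.12 in shCxxc5 and 0.92 in shCtrl. Skil (0.22 in shCxxc5 and 0.32 in shCtrl), Smad7 (0.11 and 0.20) and Smad2 (-0.15 and -0.11) differed by no more than 0.32 in either group.

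Genes whose levels ran most like those of 5 members over the 6 libraries were found by the root mean square difference of centred log2 CPM among 11100 other genes. For Skil they were Sik1 (0.037), Mettl27 (0.042) and Banp (0.043), for Ski Ubald1 (0.026), Tsc22d2 (0.032) and Fyn (0.042), and for Smad7 Tmem167b (0.025), Oard1 (0.041) and Usp6nl (0.044). Tgfbr1 was nearest to Tapbpl (0.038), Hells (0.066) and Hyal2 (0.072), and Tgfbr2 to Usb1 (0.019), Nub1 (0.031) and Tmem106b (0.031). These distances are descriptions over 6 libraries that share their replicate structure.

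Among target genes of the pathway, more fell than rose in replicates 3 and 4. The list was written with earlier results of these data known, so its direction is no independent evidence, and many of its genes also answer to other signals. Of 27 TGF-beta and BMP target genes, 24 were tested there, and 11 fell and 2 rose (against 9% and 11% of all genes); their median log2 fold change was -0.12, against 0.00 over all genes. Vegfa, the vascular growth factor gene, stood at 151, 88.2 and 93.2 CPM in shCxxc5 replicates 2, 3 and 4, against 224, 164 and 164 CPM in shCtrl. It fell by 0.86 in replicates 3 and 4 (SE 0.04, edgeR adjusted p = 1.40e-14), and every shCxxc5 library was below every shCtrl library. Junb, an AP-1 subunit gene, had 266, 303 and 305 CPM in shCxxc5 and 396, 387 and 413 CPM in shCtrl (fell by 0.39, SE 0.04, edgeR adjusted p = 5.15e-09). Bhlhe40, a transcriptional repressor gene, had 50.0, 66.6 and 58.3 CPM in shCxxc5 and 88.9, 87.1 and 82.7 CPM in shCtrl (fell by 0.43, SE 0.06, edgeR adjusted p = 2.50e-06). For both, no shCxxc5 library reached the shCtrl range. Vegfa, Junb and Bhlhe40 also passed in DESeq2 with the replicate block over 6 libraries (adjusted p = 1.18e-05, 0.00937 and 0.0152).

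The 13 target genes called in replicates 3 and 4 included Vegfa, Junb, Bhlhe40, Cdkn1a, Hes1 and Tgfbi. Without each of the 4 libraries, the log2 fold change of Cdkn1a ran from -0.44 to -0.28. That of Hes1 ran from -1.12 to -1.06 and that of Tgfbi from 0.45 to 0.54. Cdkn1a, Hes1 and Tgfbi, and Id3 and Gadd45a below, were named after their values were seen. Cdkn1a, the gene of the cell cycle inhibitor p21, fell by 0.37 (SE 0.06, edgeR adjusted p = 2.46e-05), and its log2 ratio in number 2 was -0.58. Hes1, a Notch-responsive repressor gene, fell by 1.09 (SE 0.20, adjusted p = 0.000220) at low counts, with 2.5 and 2.59 CPM in shCxxc5 replicates 3 and 4 against 5.35 and 5.52 CPM in shCtrl. Tgfbi, which encodes a TGF-beta-induced matrix protein, went the other way: it rose by 0.49 in replicates 3 and 4 (SE 0.09, adjusted p = 0.000278), with 23.3 and 22.8 CPM in shCxxc5 against 17.0 and 15.9 CPM in shCtrl. In number 2 it was lower in shCxxc5, at 36.0 CPM against 75.6 CPM in shCtrl. The BMP target Id3 also rose in replicates 3 and 4 (0.24, SE 0.07, adjusted p = 0.0118) and was lower in number 2 (-1.04), and its call was lost without shCxxc5 replicate 3 or 4 or shCtrl replicate 4 and in DESeq2 (adjusted p = 0.105). Gadd45a, a stress-response gene, fell in replicates 3 and 4 (-0.71, SE 0.17, adjusted p = 0.00381) and stood far higher in number 2 (2.39); its call was lost without shCxxc5 replicate 3 and in DESeq2 (adjusted p = 0.0630).

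**Figure D4:**
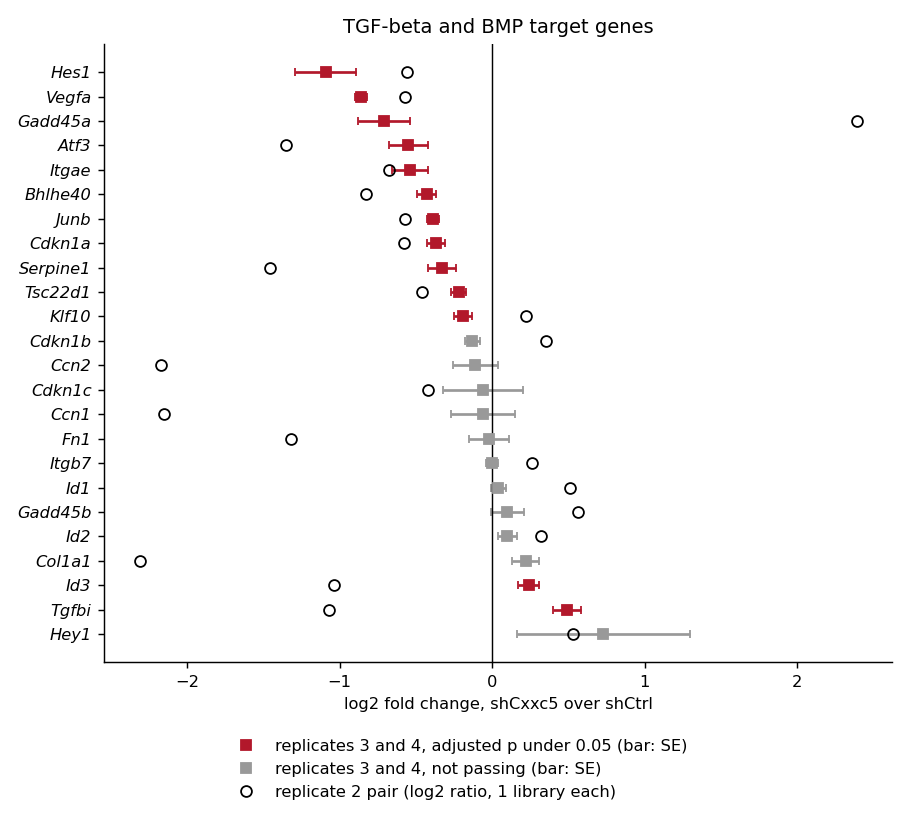
Log2 fold change of shCxxc5 over shCtrl (x axis) for the 24 tested TGF-beta and BMP target genes in replicates 3 and 4 (squares, bars are SE, red where edgeR's adjusted p was under 0.05) and log2 ratio in the single pair of replicate 2 (open circles). Of the genes called, 11 lie below 0 and 2 above, and the replicate 2 pair lies on the other side of 0 for Gadd45a, Klf10, Id3 and Tgfbi.

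The other lists of pathway genes are read against the share of all tested genes called in replicates 3 and 4, which was 20.0% (11% higher and 9% lower); no test set a list against that share. Upstream of the receptor, among 15 further ligand genes 6 were tested, and 1 fell in replicates 3 and 4 (Inhba, at 0.580 and 0.617 CPM in shCxxc5 against 1.65 and 1.14 CPM in shCtrl; -1.25, SE 0.41, edgeR adjusted p = 0.0284). Gdf11, the named ligand, did not pass (0.17, SE 0.15, adjusted p = 0.497). Of 13 tested genes of latency and ligand activation, 1 rose (Itgav) and 2 fell (Thbs1 and the integrin subunit gene Itgb6), a count near that share. Thbs1, which encodes thrombospondin 1, an activator of latent TGF-beta stored in platelets, fell by 0.48 (SE 0.04, edgeR adjusted p = 2.81e-09). It stood at 865, 156 and 171 CPM in shCxxc5 replicates 2, 3 and 4 against 2113, 236 and 221 CPM in shCtrl. The megakaryocyte marker sums given above, mostly Itgb3 in numbers 3 and 4, were also lower in shCxxc5 within each number. The part of these sums was not tested. Itgav, an integrin subunit of TGF-beta-activating receptors, rose by 0.15 (SE 0.05, adjusted p = 0.0420), a call lost without shCxxc5 replicate 3 (0.08), shCtrl replicate 3 (0.16) or shCtrl replicate 4 (0.13), in DESeq2 (adjusted p = 0.228), in limma-voom (0.0511) and with library totals alone (0.104). Ltbp1, a latent TGF-beta binding protein gene, stood at 38.2, 2.32 and 2.22 CPM in shCxxc5 and at 232, 3.03 and 3.50 CPM in shCtrl and did not pass (-0.50, SE 0.24, adjusted p = 0.150).

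Among 11 tested receptor and co-receptor genes and 3 other SMAD genes edgeR called 0 in replicates 3 and 4, where it called 20.0% of all tested genes. An unadjusted p under 0.05, which at least 20.0% of all tested genes had, was seen for 4 receptor genes and 1 SMAD gene. DESeq2 and limma-voom called 0 as well, and 1 receptor gene, Neo1, passed in edgeR with the replicate block. Eng, the co-receptor endoglin, had 37.9, 48.0 and 40.7 CPM in shCxxc5 and 66.1, 51.5 and 48.7 CPM in shCtrl (-0.16, SE 0.07, adjusted p = 0.103); without shCxxc5 replicate 3 it passed (-0.30, adjusted p = 0.0256). Acvrl1, a type I receptor gene, gave -0.37 (SE 0.16, adjusted p = 0.117), and the pseudoreceptor gene Bambi 0.28 (SE 0.13, adjusted p = 0.147). Smad1 (-0.14, SE 0.07, adjusted p = 0.157) and Smad6 (0.18, SE 0.11, adjusted p = 0.280) did not pass either.

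Of 22 genes of receptor and SMAD turnover or dampening, 2 fell in replicates 3 and 4, where 9% of all tested genes fell. Sik1, a salt-inducible kinase that takes part in receptor degradation with SMAD7, had 39.6, 36.8 and 35.9 CPM in shCxxc5 and 59.5, 46.2 and 46.0 CPM in shCtrl (fell by 0.34, SE 0.07, edgeR adjusted p = 0.000445). Its groups did not overlap. Usp11, a deubiquitinase gene, fell by 0.29 (SE 0.05, adjusted p = 6.26e-05) and was higher in number 2 (log2 ratio 0.49). Strap, a receptor-associated adaptor gene, did not pass (0.09, SE 0.04, adjusted p = 0.0950). The ubiquitin ligase genes Smurf1 and Smurf2, partners of SMAD7 named after their values were seen, gave -0.07 (SE 0.08) and 0.02 (SE 0.06) and did not pass.

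Of 18 tested nuclear partners of SMADs, 1 rose and 3 fell, against 11% and 9% of all tested genes. The corepressor gene Ncor1 fell by 0.22 (SE 0.04, adjusted p = 0.000119), and this was the call of the list that held without each library. The deacetylase gene Hdac1 rose by 0.30 (SE 0.09, adjusted p = 0.0117) and was higher in every shCxxc5 library, at 21.3, 25.3 and 24.4 CPM against 16.1, 20.3 and 20.1 CPM in shCtrl. Its call was lost without shCxxc5 replicate 3 (adjusted p = 0.140) or shCtrl replicate 3 (0.0742) and in DESeq2 (0.120). The repressor gene Zeb1 fell by 0.17 (SE 0.05, adjusted p = 0.0221), a call lost without shCxxc5 replicate 3, shCxxc5 replicate 4 or shCtrl replicate 3 (-0.21, -0.14 and -0.14) and in DESeq2 (adjusted p = 0.149). In the TAK1 branch, the SMAD-independent kinase arm, 2 of 8 genes rose and 1 fell, against 11% and 9% of all tested genes: Mapk14 by 0.17 (SE 0.04, adjusted p = 0.00349) and Map3k7, the TAK1 gene, by 0.13 (SE 0.05, adjusted p = 0.0406) on the higher side, and Map2k6 with -0.46 (SE 0.14, adjusted p = 0.0160). Without shCxxc5 replicate 3 these 3 genes no longer passed (0.16, 0.17 and -0.51). Map3k7 also failed to pass without shCxxc5 replicate 4 (0.10), shCtrl replicate 3 (0.11) or shCtrl replicate 4 (0.15), in DESeq2 (adjusted p = 0.211), with library totals alone (0.110) and with no filter (0.0654). Map2k6 did not pass without shCxxc5 replicate 4 (-0.42) or shCtrl replicate 4 (-0.35) or in DESeq2 (adjusted p = 0.138). Within all 3 replicate numbers 1 of the 8 TAK1 branch genes was higher in shCxxc5 and 2 were lower. Of all tested genes 19.0% were higher and 22.4% lower in this way. Mapk14 and Map3k7 were thus not both higher within every number. Exons of Thbs1, Itgav, Ncor1, Zeb1, Eng, Acvrl1, Junb, Bhlhe40, Cdkn1a and Gadd45a overlap antisense genes by 61 to 634 bases, and reads of such partners cannot be told apart if strand was not used in counting.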

How the data were processed

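RNA from 20000 to 50000 sorted cells per library was made into stranded mRNA libraries, per the labels' protocols. The deposited values are raw read counts per Ensembl gene, which per the submitters' processing notes came from STAR 2.5.2b alignment to GRCm38 and featureCounts 1.5.1, with DESeq2 also named; the strand setting is not given in the sources used here. Symbols and positions came from GENCODE M21 (49412 of 49671 identifiers matched), promoters from RefSeq (GRCm38.p6; 6 of the 10 genes have an entry, Smad2, Smad4, Smad7 and Skil do not). Counts carry no molecular identifiers, and library totals are given with the results.

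The groups were tested with edgeR 4.0.16 (R 4.3.3): TMM scaling, filterByExpr, robust quasi-likelihood test on the group, Benjamini-Hochberg adjustment over all genes tested, threshold 0.05. SE is the absolute log2 fold change over the square root of F. CPM use TMM-scaled library sizes, with a prior count of 2 on the log2 scale. Replicate numbers paired the samples by deviations from group means (correlations 0.670, 0.554 and 0.489 for numbers 2, 3 and 4), though numbers 3 and 4 correlated about as well when crossed (shCxxc5 4 with shCtrl 3 0.489, shCxxc5 3 with shCtrl 4 0.475), so chiefly number 2 is set apart. Alternatives were DESeq2 1.42.0, limma-voom (limma 3.58.1), other scalings and filters, the replicate block and leaving out each library. The code was tested on simulated counts. Genes named from each pathway list were the 3 of smallest p in replicates 3 and 4 with an average log2 CPM of at least 1, where the list had as many; Inhba, Itgb6, Neo1, Smurf1, Smurf2, Klf10, Cdkn1a, Hes1, Tgfbi, Id3 and Gadd45a were named after their values were seen. Members, lists and the fit of replicates 3 and 4 were chosen with earlier results of these data known.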

Additional observations from a re-analysis of the deposited data

How the results depend on the processing

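Over all 6 libraries the count of called genes was 0 of the 10 members and 0 of all genes under edgeR with the replicate block, limma-voom, the other scalings and filters, no robust option and without each library in turn. DESeq2 called 19 of all genes and 147 with the replicate block, of which 0 and 1 were members. Of the other pathway genes it called 1 (a target gene) and, with the block, 4 (1 of latency and ligand activation and 3 targets). Cxxc5 passed in DESeq2 (-2.25) and in DESeq2 with the block (-2.34); without each library it ran from -2.46 to -1.91. In replicates 3 and 4 edgeR called 2833 genes, 3300 with the replicate block and 1353 in DESeq2, and 1507 to 2043 without each library, where 1 group has 1 library that is assumed to vary like the other group. Of the 2833, 979 were also called in all 4 fits that leave out a library. Members called were 4, 5 with the block, 2 in DESeq2 and 2 to 4 without each library. The other pathway genes called were 26, then 14 in DESeq2 and 14 to 21 without each library. By list, DESeq2 called 0 ligands, 1 gene of latency, 1 nuclear partner, 1 TAK1 branch gene and 9 targets, and the block called 1 receptor gene; without each library the counts ran from 0 to 1 for ligands, 1 to 3 for latency, 0 to 1 for receptors, 1 to 4 for nuclear partners, 0 to 2 for the TAK1 branch and 8 to 11 for targets. Signs turned without a library over all 6 for Tgfb1 (-0.71 to 0.24), Smad3 (-0.50 to 0.03), Smad4 (-0.23 to 0.00) and Smad5 (-0.03 to 0.22), and in replicates 3 and 4 for Smad3 (-0.04 to 0.04, and 0.00 in limma-voom), none of them called. Beyond Tgfb1 in replicates 3 and 4 and Skil in DESeq2, the block changed no call of a member. The alternatives for pathway lists and genes outside the members were added after the data were seen. The cause of these differences was not tested. Counts limit genes under about 1 CPM, such as Inhba.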
